A study of Mus musculus with 2 samples.

Results

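The genes described here are the replication-dependent histone genes, followed in E13.5 mouse eyecups (neural retina, lens and blood) of a control and of a Six3 and Six6 double knockout (DKO) embryo. They were taken as every row of the deposited gene lists whose symbol begins with Hist1h, Hist2h, Hist3h or Hist4h and that had at least 20 unique molecular identifiers (UMIs, each counting 1 captured RNA molecule) over both libraries, which gave 61 of 31053 genes. The pattern matched 67 rows, and the 6 below the minimum were Hist1h4m with 18 UMIs, Hist1h1t with 6, Hist1h2aa and Hist2h2aa2 with 1 each, and Hist1h2bq and Hist1h2ba with 0. Just inside the minimum stood Hist1h2ao with 35 UMIs and Hist1h2ah with 69. The 61 genes comprised 5 of the linker class H1, 16 of H2a, 16 of H2b, 12 of H3 and 12 of H4.

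The control library came from the eyecups of 1 embryo with the genotype Six3+/-;Six6+/-, taken as a GFP-negative littermate with normal eye shape, and so carried 1 null allele of each gene. The DKO library came from the eyecups of 1 littermate embryo with the genotype Six3F/F;Six6-/-;a-Cre, picked by its GFP-positive rosettes. The a-Cre transgene acts in the peripheral retina, so Six3 was deleted in part of the DKO retinal cells, whereas Six6 was missing from the germ line. With 1 library per genotype there was no replicate, no test between genotypes was possible, and every interval given below is a 95% exact interval that covers counting error only. Differences between embryos, dissections and libraries cannot be told apart from those between genotypes.

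Replication-dependent histone genes are transcribed mainly in S phase, when newly copied DNA is wrapped on freshly made nucleosomes. H2A, H2B, H3 and H4 proteins form the nucleosome core, and H1 binds the DNA that enters and leaves it. Their mRNAs are unusual in that most lack a poly(A) tail. They end just after a short stem-loop, which the stem-loop binding protein Slbp holds during 3′ end processing, export and translation, and which the 3′ exonuclease Eri1 helps to remove when replication stops. Several of these genes are also known to yield polyadenylated mRNAs that persist in cells which no longer divide. The libraries were primed from A-rich stretches, so a UMI here counts a histone mRNA that carried a poly(A) tail or an internal run of A, and how much of each gene's mRNA was captured was not measured.

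The stem-loop was searched for in the GENCODE M21 gene models (GRCm38) as a 16-base match after the stop codon. It was found in 43 of the 61 genes, 11 models ended at the stop codon, and 7 had bases after it with no match. Of 21901 protein-coding genes, 99 (0.452%) held a match in any coding transcript. The most frequent form, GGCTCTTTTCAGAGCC, was shared by 25 of the 61 genes. The lines below show the stem-loop in capitals with 5 flanking bases on each side (3 on the 3′ side of Hist1h2ap, whose model ends there), for genes on which the later results turn.
Hist3h2ba: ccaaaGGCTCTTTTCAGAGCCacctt
Hist3h2a: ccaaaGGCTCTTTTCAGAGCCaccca
Hist1h1e: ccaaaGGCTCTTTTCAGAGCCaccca
Hist1h1c: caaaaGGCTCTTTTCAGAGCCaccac
Hist1h2ap: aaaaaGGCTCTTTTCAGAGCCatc
Hist1h2ae: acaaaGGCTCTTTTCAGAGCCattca
Hist1h2ab: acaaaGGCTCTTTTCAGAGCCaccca
Hist1h3c: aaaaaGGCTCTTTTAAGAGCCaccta
Hist1h4i: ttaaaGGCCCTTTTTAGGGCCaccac
Hist1h4c: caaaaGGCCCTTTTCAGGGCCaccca

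The annotated 3′ end lay between 3 and 4884 bases beyond the stem-loop (median 108). In 8 genes it lay within 30 bases and in 22 genes over 100 bases beyond, and 11 of those 22 models had a poly(A) signal in their last 50 bases. Hist3h2ba, an H2b gene on the plus strand of chromosome 11 with its stem-loop at chr11:58949349-58949364, ran 169 bases past it. Hist3h2a, its H2a neighbour with the stem-loop at chr11:58955172-58955187, ran 1643 bases past. Both models held a poly(A) signal, 27 and 34 bases from their ends. The Hist1h2ap model ended 3 bases after its stem-loop and that of Hist1h2ab 11 bases after, whereas Hist1h4i ran 330, Hist1h1c 840 and Hist1h1e 1153 bases past theirs. The coding parts of these genes are close copies of each other. In 34 of the 61 genes, less than 50% of the 50-base windows of the last 500 bases occurred in that gene alone, and in 13 genes all of them did. The share was 6.93% for Hist1h2ap, 42% for Hist1h2ab, 43.9% for Hist1h2ae, 44.3% for Hist1h3c, 78.5% for Hist3h2ba, and 88.9% for Hist1h4i. For Hist3h2a, Hist1h1c and Hist1h4c every window was unique. It was 0.887% for Hist1h1e, whose model overlaps an extended model of Hist1h2be. Levels of single genes with a low share are therefore uncertain, since reads from a near-identical copy may have been dropped or split. The class sums are not free of this, since dropped reads are lost from them too and Hist1h1e shares sequence with an H2b gene.

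Expression was concentrated in few genes and in 1 genomic region. The 61 genes held 386203 UMIs, 180350 in the control (2107 CPM, the UMIs scaled to 1000000 UMIs of the library) and 205853 in the DKO (2417 CPM). All totals, shares and ranks in this paragraph cover every deposited barcode, before cells were filtered. H1 genes gave 34.9% of these UMIs, H2a 31.4%, H2b 14.7%, H3 12% and H4 6.98%. Since a UMI counts 1 captured molecule whatever its length, levels were not divided by length. The top 4 genes held 50.2% and the top 10 held 75.2%. The Hist1 genes on chromosome 13, 49 of the 61, held 85.3%. The 9 Hist2 genes on chromosome 3 held 5.61%, the 2 Hist3 genes on chromosome 11 held 8.91% and Hist4h4 on chromosome 6 held 0.154%. The most abundant gene was Hist1h1b, a linker histone gene, with 61521 UMIs, followed by Hist1h1e (48763), Hist1h2ap (44324), Hist1h2ae (39369) and Hist3h2ba (29213).

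After filtering, 9822 control and 12146 DKO cells remained, with a median of 7620 and 5879 UMIs per cell. Of the barcodes, 22 occurred in both libraries. Cells were clustered without the histone genes and named from marker genes as naive-like progenitors (3918 control and 3727 DKO cells), neurogenic-like progenitors (1469 and 1855), neurons (1128 and 1899, clusters named ganglion-like, photoreceptor-like, and amacrine- or horizontal-like), and pigment-like, lens-like and blood-like cells. Clusters of low UMI count, a cluster of mostly doublets, and a cluster led by Tbr1, Lhx9 and Rspo3 (36 control and 1111 DKO cells) were left unnamed. These names were rebuilt from the counts and are not the study's. In naive-like cells, Six6 (chromosome 12) stood at 361 CPM in the control and 44.0 in the DKO, and Six3 (chromosome 17) at 299 and 226 CPM, both lower in the library labelled DKO. Where the deleted parts lie relative to the counted 3′ ends was not examined.

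Each cell was placed in the cycle by scores of S and G2/M genes, on cells thinned to 2000 UMIs. The histone genes and the fixed lists of histone pathway genes were taken out before scoring. A cell with both scores below 0 was called G1, and the others S or G2M by the higher score. Of naive-like cells, 45.9% of the control and 41.2% of the DKO were assigned to S, 21.7% and 21.4% to G1, and 32.4% and 37.4% to G2M. Of neurogenic-like cells, 19.7% (285 cells) of the control and 9.12% (163 cells) of the DKO were assigned to S, and 49.7% and 70.6% to G1. Between 7.83% and 18.0% of the cells of these groups lay near a limit between stages, so stages are ranges of a score and not separate populations.

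The histone genes followed the cycle, which the rule did not use. In naive-like control cells the 61 genes summed to 677 CPM (657 to 697) in G1, 3219 CPM (3193 to 3246) in S and 3293 CPM (3264 to 3322) in G2M. S cells thus stood 4.76-fold (4.61 to 4.91) above G1 cells. In the DKO the sums were 965, 4762 and 4374 CPM, and S stood 4.93-fold (4.80 to 5.08) above G1. A finer split by the signs of both scores placed the peak in cells in which both scores were above 0 and the S score was the higher, at 5332 CPM in the control and 7189 CPM in the DKO. Cells with the S score alone above 0 had 1773 and 2421 CPM, and cells with the G2/M score alone above 0 had 2324 and 3305 CPM. Among neurogenic-like cells the contrast was wider, with 539 CPM in G1 and 5258 CPM in S of the control (9.75-fold, 9.34 to 10.2) and 695 and 5660.5 CPM in the DKO (8.15-fold, 7.84 to 8.47).

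**Figure D1:**
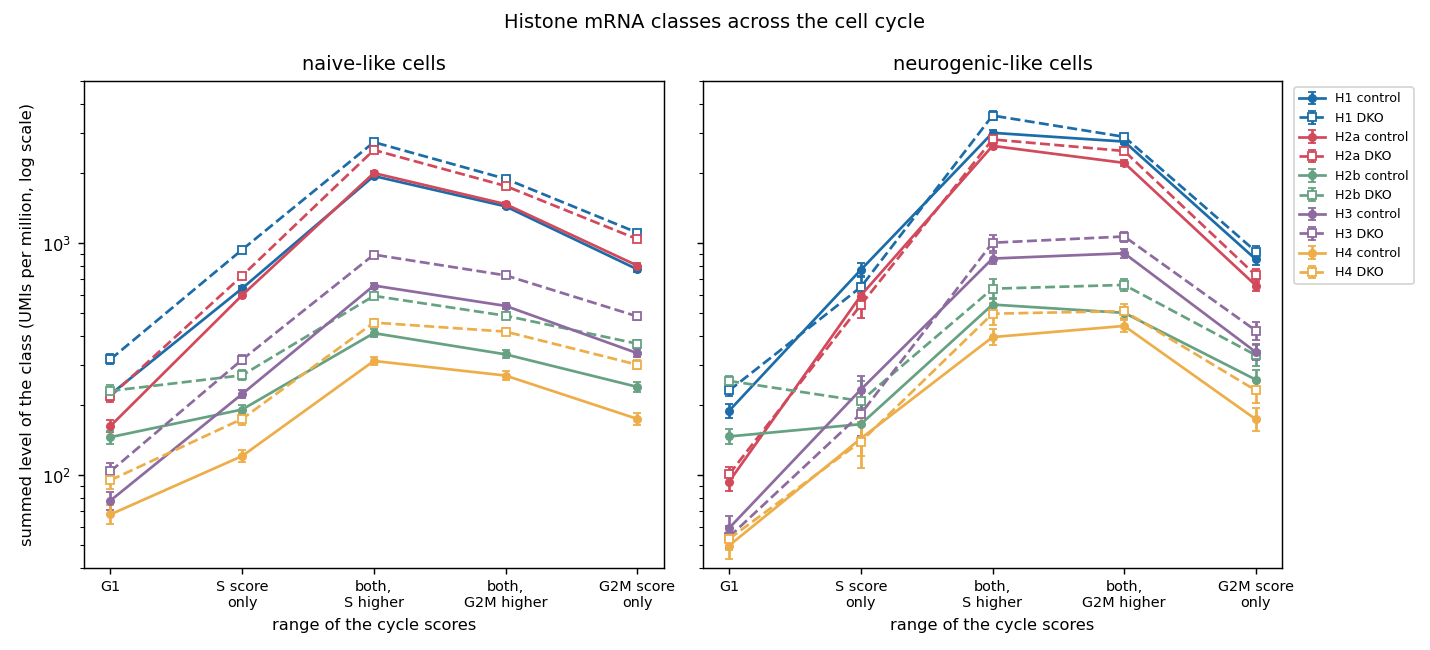
Summed level of each histone class (y axis, CPM, log scale) in 5 ranges of the cycle scores (x axis) for naive-like (left) and neurogenic-like cells (right), control as filled circles with solid lines and DKO as open squares with dashed lines, with bars for the 95% counting interval. In naive-like cells every class was highest where both scores were above 0 and the S score was higher, and every DKO point lay above the control point of its class and range.

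Of the 56 histone genes with at least 20 UMIs in both stages together, 49 were 1.5-fold or more higher in S than in G1 of naive-like control cells and 0 were 1.5-fold or more lower. Among all 12499 genes measured there, 9.14% were higher and 4.89% lower by this fold, and the median log2 ratio was -0.02 against 2.12 for the histone genes. By class, 5 of 5 H1, 11 of 14 H2a, 13 of 16 H2b, 9 of 9 H3 and 11 of 12 H4 genes were higher. In the DKO, 51 of 54 genes were higher and 2 were lower, Hist3h2ba and Hist1h2bc, against 11% and 9.74% of 12284 genes, and the median was 2.39 against -0.05.

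The classes differed in how far S exceeded G1. On the log2 scale, the control sums differed by 2.85 (2.76 to 2.94) for H2a, 2.39 for H1, 2.36 for H3, 1.55 for H4 and 0.95 (0.84 to 1.05) for H2b. The DKO gave 2.88, 2.52, 2.53, 1.71 and 0.89. H2b was thus lowest in both libraries, and Hist3h2ba made up most of that class in G1, at 82.6 of 146 CPM in the control. Without Hist3h2ba the H2b difference was 1.74 in the control and 1.83 in the DKO.

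Among linker genes, Hist1h1b had 58.2 CPM in G1, 571 CPM in S and 522 CPM in G2M of the control, and 112, 996 and 788 CPM in the DKO. Its S over G1 log2 ratio of 3.29 (3.15 to 3.45) was the third highest of the genes with at least 100 UMIs. Hist1h1e and Hist1h1c were less tied to S, with log2 ratios of 1.63 and 1.60. The highest ratios belonged to the H3 gene Hist1h3b (3.43, 2.43 to 4.66, with 1.25 CPM in G1 and 13.4 in S) and the H2a genes Hist1h2af (3.31), Hist1h2ap (3.20) and Hist1h2ae (3.14). Counting intervals of these genes overlapped, so their order is not settled.

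At the other end, 3 genes were lower in S than in G1 of both libraries. Hist3h2a had 11.2 CPM in G1 and 7.79 CPM in S of the control and 15 and 10.1 CPM in the DKO. Hist1h2bc, an H2b gene of the Hist1 region, had 21.7 and 16.3 CPM in the control and 48.6 and 29.4 CPM in the DKO. Hist3h2ba had 82.6 and 69.7 CPM in the control and 134 and 82.6 CPM in the DKO. The log2 ratios in the control were -0.53 (-0.95 to -0.09), -0.41 (-0.71 to -0.10) and -0.25 (-0.39 to -0.09). Hist1h4i was close to equal in the control, with 12.8 CPM in G1 and 13.9 CPM in S (0.12, -0.25 to 0.50), but not in the DKO, with 31.8 and 54.6 CPM (0.78, 0.53 to 1.03). Hist1h2ag followed with a log2 ratio of 0.54 in the control.

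Neurons, which have left the cycle, kept a small and differently composed set of histone UMIs. The 61 genes summed to 882 CPM (862 to 901) in control neurons and 1113 CPM (1095 to 1131) in DKO neurons, 0.274-fold and 0.234-fold of the S level of naive-like cells in the same library. Of 56 genes measured in control neurons and naive-like S cells together, 51 were 1.5-fold or more lower and 3 higher in neurons. Among all 13060 genes, 29.0% were lower and 27.9% higher, with a median log2 ratio of -0.02 against -3.78 for the histone genes. In the DKO, 51 of 56 histone genes were lower and 4 higher, against 29.8% and 29.6% of 13166 genes, and the median was -4.04 against -0.02.

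The genes higher in neurons were Hist3h2ba, Hist3h2a and Hist2h3c1 in the control, and these and Hist2h3c2 in the DKO. Hist3h2ba had 433 CPM in control neurons against 69.7 in naive-like S cells, a log2 ratio of 2.63 (2.54 to 2.73), and 545 against 82.6 CPM in the DKO (2.72, 2.63 to 2.82). Hist3h2a had 99.7 against 7.79 CPM in the control (3.68, 3.42 to 3.95) and 110.1 against 10.1 CPM in the DKO (3.44, 3.18 to 3.72). Both were also higher in neurons than in naive-like G1 cells of the control, by 2.39 and 3.15 on the log2 scale. Hist2h3c1, an H3 gene, rested on 15 UMIs in control neurons and 10 in S cells (1.52, 0.27 to 2.83) and on 29 and 8 in the DKO (1.81, 0.64 to 3.15). Of the 50-base windows of Hist2h3c1, 0% occurred in that gene alone, so its own level is uncertain. Hist2h3c2, also an H3 gene, had 23 UMIs in DKO neurons and 1 in S cells, and its ratio of 4.47 (1.85 to 9.84) was above those of the Hist3 pair but is poorly fixed by so few counts. In the control it had 12 and 2 UMIs, below the minimum for a count.

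Because of Hist3h2ba, H2b was the class that was higher in neurons than in naive-like S cells, at 469.7 against 281 CPM in the control and 587 against 429 CPM in the DKO. With that gene left out, H2b was lower in neurons as well, by a log2 ratio of -2.50 in the control and -3.06 in the DKO. The other classes were lower with all their genes, from -2.50 (H4) to -3.38 (H3) in the control and from -2.66 (H4) to -3.72 (H3) in the DKO. H2b made up 8.72% of histone UMIs in naive-like S cells of the control and 53.3% in control neurons, and 9.0% and 52.8% in the DKO. Without the 2 Hist3 genes, neurons held 349 CPM in the control and 457 CPM in the DKO.

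**Figure D2:**
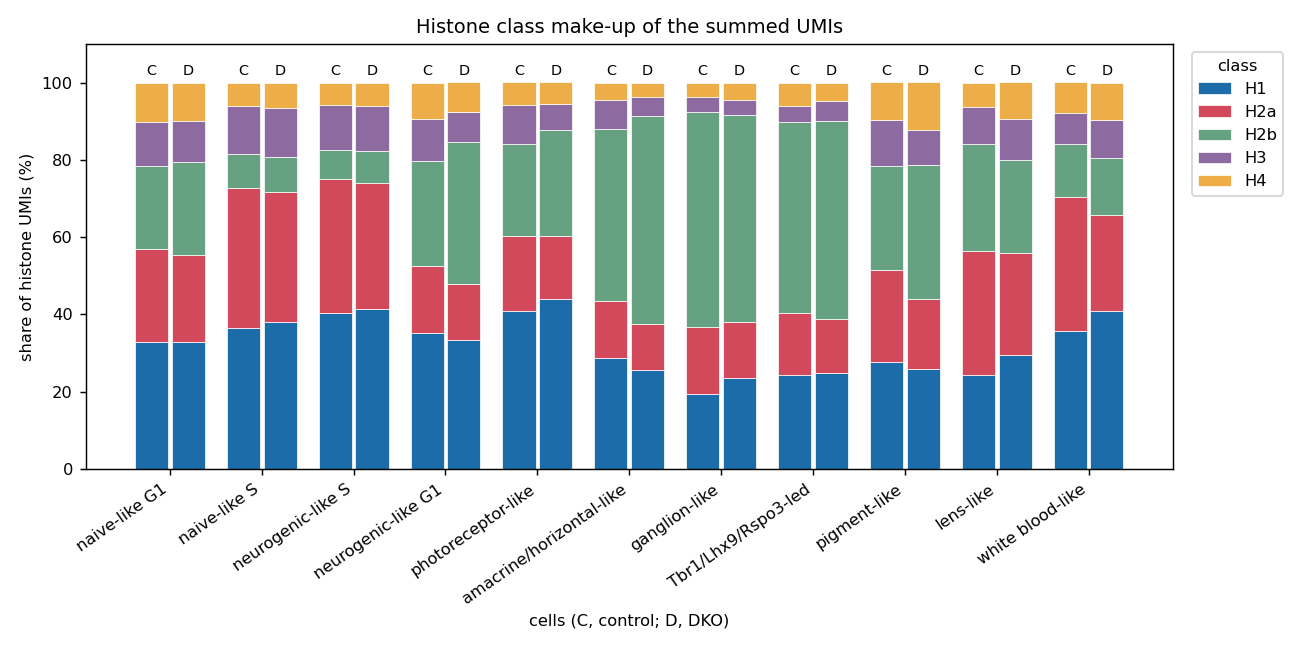
Share of the histone UMIs that fell to each class (y axis, percent) in 11 groups of cells of the control (C) and DKO (D) libraries. H2b (green) widened from 8.72% in naive-like S cells to 53.3% in all control neurons together, of which the ganglion-like cells show the widest bar.

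Within neurons, Hist3h2ba was at 406 and 545 CPM in the 2 ganglion-like clusters of the control, 291 CPM in amacrine- or horizontal-like and 160.3 CPM in photoreceptor-like cells. In the DKO it was at 576, 548, 513 and 236 CPM in the same order. The cluster led by Tbr1, Lhx9 and Rspo3, of which 1111 of 1147 cells were DKO, had 405 CPM in its 36 control cells and 641 CPM in its DKO cells. Among the other cells, lens-like cells had 236 and 232 CPM and pigment-like cells 113 and 144 CPM, the highest level of any histone gene in both. The red blood-like cluster with the lowest histone level had 2.19 and 3.55 CPM. In both libraries photoreceptor-like cells were thus the lowest of the named neurons for this gene. They were the highest for the linker gene Hist1h1e, with 265 and 366 CPM against 113 to 159 CPM in the other named neurons of the control and 164 to 235 CPM in those of the DKO.

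Shares of cells were compared with those of red blood-like cells, as a guide to free RNA, which was not itself measured. Among cells thinned to 2000 UMIs, 43.9% of naive-like S cells of the control and 54.9% of the DKO held a Hist1h1b UMI, against 2.06% (1.31 to 3.08) and 2.92% (2.20 to 3.79) of neurons. Cells of the red blood-like cluster with the lowest histone level, whose median depth was 9004 UMIs in the control and 7213 in the DKO against 8049.5 and 6834 in neurons, held one in 1.17% (0.535 to 2.20) and 1.11% (0.229 to 3.20) of cells. These intervals overlap those of neurons in both libraries. Of the staged cells of that cluster, 11.5% were assigned to S and 12.6% to G2M, so its own histone mRNA may be included. Whether the Hist1h1b UMIs of neurons were free RNA was not tested. The summed Hist1h1b level in the control was 10.6 CPM in neurons and 5.85 CPM in the red blood-like cells. In the DKO it was 13.3 and 10.7 CPM. Without thinning, 5.67% and 6.95% of neurons and 3.60% and 4.27% of the red blood-like cells held a Hist1h1b UMI. Hist3h2ba differed more between these cells. It was present in 51.7% of control and 62.0% of DKO neurons after thinning (86.4% and 89.4% without), in 12.9% and 14% of naive-like S cells, and in 0.389% and 1.48% of the red blood-like cells. Any histone UMI was found in 82.8% of control and 86.5% of DKO naive-like cells, 77.9% and 84.7% of neurons, and 16.2% and 18.5% of the red blood-like cells.

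The lowest neuron over S ratios with at least 100 UMIs were those of Hist1h2ag, Hist1h3d, Hist1h1b, Hist1h2ai and Hist1h2an. Hist1h2ag had 0 UMIs in control neurons and 114 in naive-like S cells, and the upper limit of its log2 ratio was -3.99. Hist1h3d and Hist1h2ai had 1 UMI each in control neurons, with ratios of -7.36 (-12.66 to -4.87) and -5.70 (-11.01 to -3.18), and Hist1h2an had 5 UMIs (-5.65). Hist1h1b rested on 96 UMIs, with 10.6 CPM in control neurons against 571 in S cells (-5.75, -6.06 to -5.46). Apart from the genes higher in neurons, the smallest differences were those of Hist1h2bc (14.9 against 16.3 CPM, -0.13), Hist1h1c (27.2 against 70.1 CPM, -1.36) and Hist1h1e (141 against 373 CPM, -1.40).

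**Figure D3:**
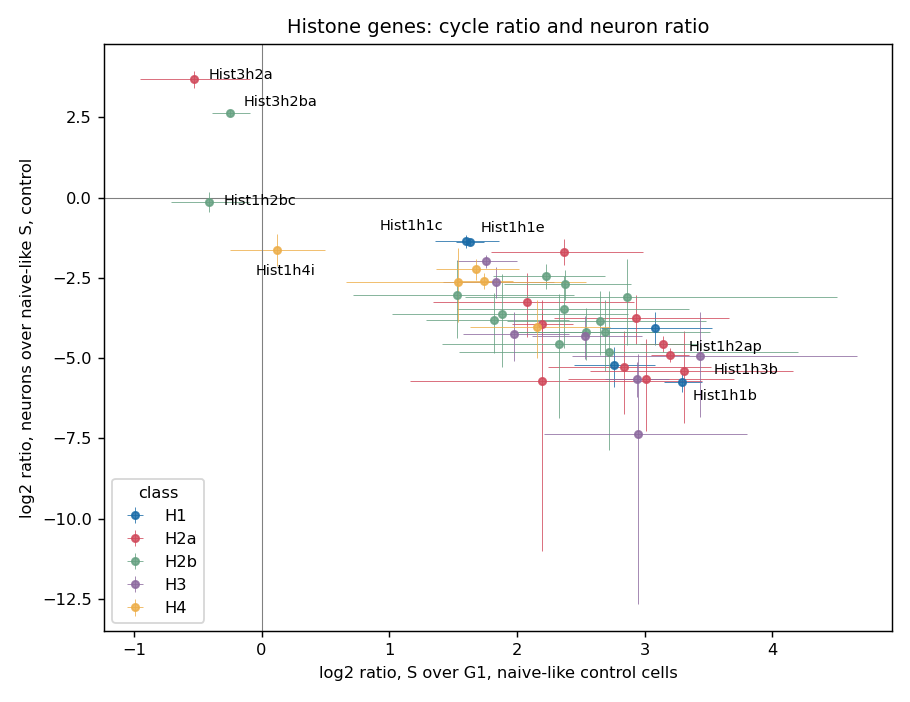
Each point is 1 of the 42 histone genes with at least 100 UMIs in both comparisons and a finite ratio, at its log2 ratio of S over G1 in naive-like control cells (x axis) and of control neurons over naive-like S cells (y axis), with 95% counting intervals and colours for the class. Hist3h2a and Hist3h2ba lie at the upper left (-0.53 and 3.68, -0.25 and 2.63), apart from Hist1h1b at the lower right (3.29 and -5.75).

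Both Hist3 genes lie within 7.91 kb on chromosome 11. Their promoters, of 250 bases upstream of the RefSeq start (GRCm38.p6), are shown because these 2 genes shared a pattern that set them apart in the values above. Capitals mark the CCAAT box (CCAAT), the TATA box (TATAAA) and the octamer (ATTTGCAT), each searched on both strands. That of Hist3h2ba is chr11:58948661-58948910 and that of Hist3h2a chr11:58954435-58954684, both on the plus strand.
Hist3h2ba promoter: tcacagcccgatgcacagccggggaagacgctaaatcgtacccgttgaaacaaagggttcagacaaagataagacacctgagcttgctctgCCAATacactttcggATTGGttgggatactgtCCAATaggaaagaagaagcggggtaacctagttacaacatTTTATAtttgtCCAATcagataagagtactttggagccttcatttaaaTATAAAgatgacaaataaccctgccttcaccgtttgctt
Hist3h2a promoter: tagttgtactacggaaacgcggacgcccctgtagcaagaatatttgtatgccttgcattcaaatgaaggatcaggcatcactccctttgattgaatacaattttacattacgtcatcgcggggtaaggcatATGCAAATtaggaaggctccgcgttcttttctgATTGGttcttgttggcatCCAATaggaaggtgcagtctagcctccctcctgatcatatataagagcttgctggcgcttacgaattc

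The Hist3h2ba window held 4 CCAAT and 2 TATAAA matches, and that of Hist3h2a held 2 CCAAT matches and 1 octamer. Over the 55 histone genes with a RefSeq promoter, CCAAT was present in 81.8% (all 32817 promoters of the same length: 33.8%), TATAAA in 45.5% (12.4%), and the octamer in 20% (1.60%), in 6 H2a and 5 H2b promoters. AAACACA, known from H1 promoters, was in 3 of 4 H1 promoters and in 9.09% of all histone promoters against 6.25% of all promoters. H4 promoters held CCAAT least often, in 3 of 11. These matches describe the letters only.

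A list of 10 genes known for polyadenylated mRNAs includes the Hist3 pair and Hist1h2bc. Of its 8 measured genes, 2 (the Hist3 pair) were 1.5-fold or more higher and 4 lower in control neurons than in naive-like S cells (all genes: 27.9% and 29.0%; median log2 ratio -0.81, all genes -0.02), and 4 were higher and 0 lower in S than in G1 (all genes: 9.14% and 4.89%; median 1.02). Grouped by the gene model, the 20 measured genes that run over 100 bases past the stem-loop had a median S over G1 log2 ratio of 1.80 in the control, the 20 that end within 100 bases had 2.10 and the 16 with no stem-loop in the model had 2.59. Their ranges overlapped, from -0.53 to 3.14, 0.54 to 3.43 and -0.41 to 3.31. For neurons over S the medians were -2.62, -3.99 and -4.24.

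In the red blood-like cluster of lowest histone level (108 CPM in the control, 129 in the DKO), Hist1h2bc alone gave 33.9 and 29.9 CPM, while Hist1h1b gave 5.85 and 10.7 CPM. In the second red blood-like cluster (319 and 379 CPM) Hist1h1c was the highest gene, with 75.9 and 90.6 CPM, followed by Hist1h2bc, with 39.6 and 59.4 CPM. White blood-like cells, 56 in the control and 163 in the DKO, had 129 and 154 CPM of Hist1h1c and 70.9 and 92.2 CPM of Hist1h2bc, but genes that were high in S cells stood beside them, with 109.5 and 209 CPM of Hist1h1b, 142 and 127 CPM of Hist1h2ap and 74.1 and 208 CPM of Hist1h1e. Set against naive-like S cells (16.3 and 29.4 CPM), Hist1h2bc was higher in each of these blood-like groups except the first in the DKO, where it was about equal. Hist3h2ba, the leading H2b gene of neurons, was at 6.21 CPM or less in both red blood-like clusters.

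**Figure D4:**
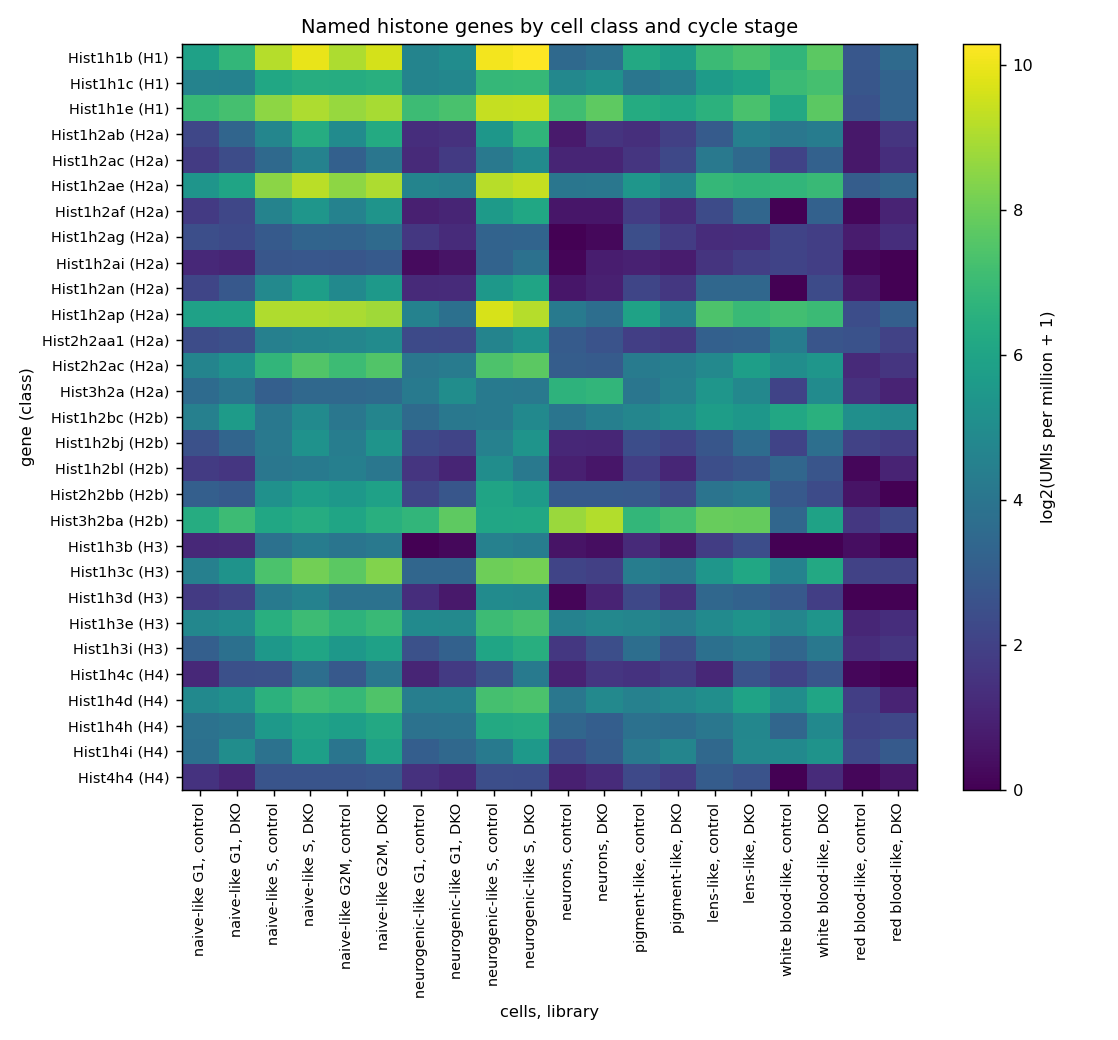
Level of 29 named histone genes (rows, with class) in 20 groups of cells and libraries (columns), coloured by log2(CPM + 1). Most rows are bright in the S columns of both progenitor classes and in the naive-like G2M columns, and dark in neurons. Hist3h2ba and Hist3h2a are brightest in the neuron columns, and Hist1h2bc is brightest in the white blood-like columns.

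Between genotypes, the histone sum was higher in naive-like cells of the DKO at every stage. It was 2825 CPM (2808 to 2841) in the control and 3955 CPM (3934 to 3977) in the DKO over all stages, a log2 ratio of 0.49 (0.47 to 0.50). The ratio was 0.51 in G1, 0.56 (0.55 to 0.58) in S and 0.41 (0.39 to 0.43) in G2M. Within the ranges that make up S it was lower, 0.45 (0.42 to 0.48) with the S score alone above 0 and 0.43 (0.41 to 0.45) in the peak range, which held 662 of 1783 control and 683 of 1516 DKO S cells. DKO cells were shallower, and counted as UMIs per cell the S cells held 31.3 in the control and 39.1 in the DKO, a log2 ratio of 0.32. In thinned cells at the peak range, the median was 11 histone UMIs in the control and 15 in the DKO. The shares of cells in the ranges of the cycle scores also differed. The peak range held 17.0% of control and 18.6% of DKO naive-like cells, the range with both scores above 0 and the G2/M score higher 18.0% and 20.3%, and the range with the S score alone 28.9% and 22.7%. Within the separate clusters the sums were 4256 against 5319 CPM in cluster 0, 610.2 against 841 CPM in cluster 1 and 2516 against 4781 CPM in cluster 4. Clusters 0 and 1 held most naive-like cells of both libraries, and cluster 4, mostly assigned to G2M, held 698 control and 1105 DKO cells. Six3 was below 50% of the control level in DKO subclusters that held 44.5% of the DKO naive-like cells. Those cells gave a log2 ratio of 0.50 over all stages, and a median class ratio in S of 0.75 against 0.61 for all DKO cells.

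All classes took part. In naive-like S cells the DKO over control log2 ratio was 0.66 (0.59 to 0.72) for H4, at 312 against 198 CPM. It was 0.63 (0.61 to 0.66) for H1, at 1816 against 1171 CPM, 0.61 (0.55 to 0.67) for H2b, 0.58 (0.53 to 0.63) for H3 and 0.46 (0.43 to 0.49) for H2a, at 1607 against 1169.6 CPM. The order of the classes rested on single genes. Without Hist1h2ap, whose own level is uncertain (above), the ratio of H2a was 0.77 (0.73 to 0.81), and with the most abundant gene of each class left out the ratios ran from 0.45 for H1 to 0.80 for H4.

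By gene, 20 of 58 histone genes with at least 20 UMIs were 1.5-fold or more higher in DKO naive-like S cells and 0 were 1.5-fold or more lower. The background was 7.84% higher and 5.24% lower of 12883 genes, and the median log2 ratio was 0.48 against 0.04 for all genes. The higher genes were 1 of 5 H1, 7 of 15 H2a, 8 of 16 H2b, 1 of 10 H3 and 3 of 12 H4 genes, and 54 of the 58 had a ratio above 1.

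The 2 genes with the highest ratios were Hist1h4i and Hist1h2ab. Hist1h4i, an H4 gene, had 13.9 CPM in the control and 54.6 CPM in the DKO (240 and 679 UMIs), a log2 ratio of 1.98 (1.76 to 2.20) or 3.94-fold. Hist1h2ab, an H2a gene, had 25.7 and 81.8 CPM (446 and 1018 UMIs), a log2 ratio of 1.67 (1.51 to 1.83) or 3.18-fold. Hist1h4c (4.85 and 12.2 CPM, 1.33), Hist1h2bj (17.1 and 37.1 CPM, 1.12) and Hist1h2ac (10.6 and 22.8 CPM, 1.11) came next.

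Hist1h4i and Hist1h2ab were also higher in the DKO in most other groups of cells. The log2 ratio of Hist1h4i was 1.31 in naive-like G1 cells, 1.95 in G2M, 1.35 (0.74 to 1.97) in neurogenic-like S cells, 0.64 (0.10 to 1.21) in neurons, 0.55 in pigment-like and 1.41 in lens-like cells. That of Hist1h2ab was 1.35, 1.38, 1.30 (0.91 to 1.69), 1.55 (0.23 to 3.13, from 6 and 25 UMIs), 0.84 (-0.46 to 2.33) and 1.64 in the same order. In the second red blood-like cluster Hist1h4i stood at 21.5 CPM in the control and 15.3 CPM in the DKO, without an interval. In amacrine- or horizontal-like cells it stood at 4.01 against 3.63 CPM, from very few UMIs in each library. No direction can be read in either group. In cluster 3, an unnamed cluster with a median of about 1000 UMIs per cell (1050.0 in the control, 989.0 in the DKO) that was nearest to the naive-like cells, the ratios were 2.03 and 1.13, although the sum over all histone genes was 3679.7 against 3618 CPM there.

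The abundant genes differed less between the libraries, and unequally. Hist1h1b had 571 CPM in the control and 996 CPM in the DKO (0.80, 0.77 to 0.84), Hist1h2ae 359 and 598 CPM (0.73, 0.69 to 0.78), Hist1h3c 166 and 273 CPM (0.72, 0.65 to 0.79), and Hist2h2ac 109 and 179 CPM (0.71). Hist1h1e had 373 and 516 CPM (0.47, 0.42 to 0.52), Hist1h4d 96.3 and 135 CPM (0.49) and Hist1h1c 70.1 and 85.1 CPM (0.28, 0.16 to 0.40). Hist1h2ap, among the most abundant of all, had 542 CPM in the control and 536 CPM in the DKO (-0.01, -0.06 to 0.03), and its low share of unique sequence (above) makes its own level uncertain. With Hist4h4 (-0.03), Hist1h2ai (0.08), Hist1h2bl (0.11) and Hist2h2aa1 (0.16) it made up the lowest ratios among genes with at least 100 UMIs.

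**Figure D5:**
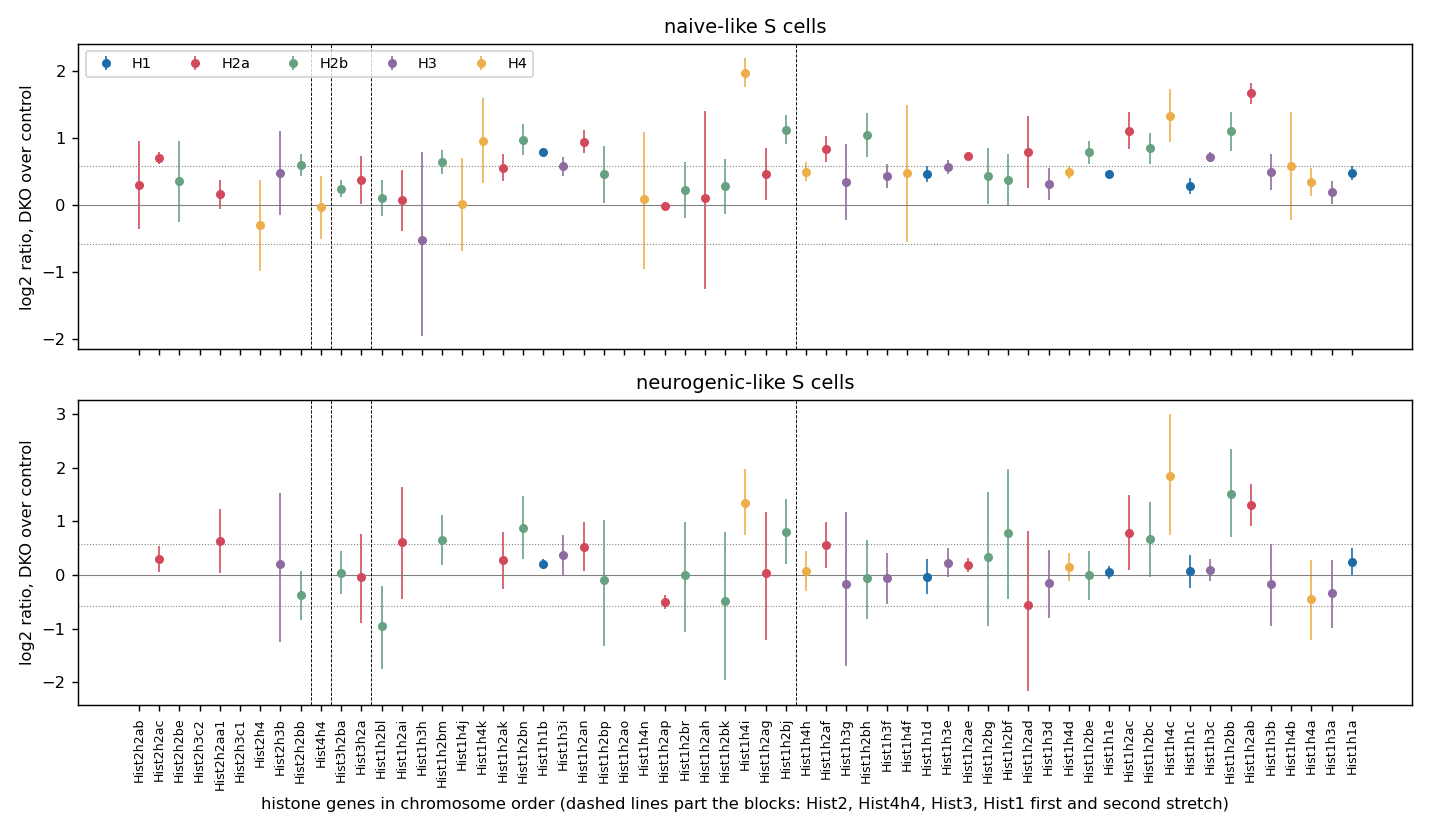
DKO over control log2 ratio (y axis) of each histone gene with at least 20 UMIs in chromosome order (x axis) in naive-like S cells (top, 58 genes) and neurogenic-like S cells (bottom, 47 genes), with 95% counting intervals, colours for the class, dotted lines at 1.5-fold and dashed lines between the genomic blocks. In the top panel most points lie above 0 and Hist1h4i (1.98) and Hist1h2ab (1.67) stand highest. In the bottom panel the points lie on both sides of 0.

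The genes higher in the DKO lay in both stretches of the Hist1 region. In the stretch of 328 kb from 21715763 to 22043676 on chromosome 13, 7 of 20 measured genes were 1.5-fold or more higher (median 0.46), and in the stretch of 233 kb from 23531050 to 23764406, 11 of 28 were (median 0.49). The Hist2 genes on chromosome 3 had 2 of 7 (median 0.36), the Hist3 pair 0 of 2 and Hist4h4 was not.

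Neurogenic-like cells gave a lower histone sum in the DKO over all stages, 2498 CPM against 3117 CPM (-0.32, -0.34 to -0.30), beside the smaller share of their cells in S and G2M. Within the 3 stages the log2 ratio was 0.36 (0.29 to 0.44) in G1, 0.11 (0.06 to 0.15) in S and 0.19 in G2M. In the finer split it was -0.15 (-0.27 to -0.03) in cells with the S score alone above 0, and without the 2 Hist3 genes the G1 ratio was 0.12 (0.04 to 0.21). In G1 the H2b class had the largest ratio, 0.79 (0.66 to 0.93), and Hist3h2ba had 109 CPM in the control and 214 CPM in the DKO. In S, 12 of 47 genes were 1.5-fold or more higher and 1 lower (background 9.36% and 7.38% of 9374 genes), and the median log2 ratio was 0.15 against 0.03 for all genes. The lower gene was Hist1h2bl, with 32.5 and 16.8 CPM (-0.95, -1.76 to -0.21). Hist1h2ap had 816 and 575 CPM (-0.50, -0.63 to -0.38), and Hist1h1b 1095 and 1257 CPM (0.20, 0.11 to 0.29). Counted as UMIs per cell, the ratio was 0.01 in G1, -0.19 in S and -0.10 in G2M. With the libraries clustered without integration the ratio over all stages was 0.47, so neither direction holds under every processing.

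DKO neurons had a higher histone sum than control neurons in CPM (0.34, 0.30 to 0.38), but counted as UMIs per cell the log2 ratio was 0.09. Per cell it was 0.21 in the first and -0.20 in the second ganglion-like cluster, 0.10 in amacrine- or horizontal-like and -0.18 in photoreceptor-like cells. H1 genes had the largest class ratio, 0.55 (0.46 to 0.63), at 186 against 271 CPM, and Hist1h1e gave most of it, at 141 against 211 CPM (0.58, 0.48 to 0.67). Hist3h2ba had 433 and 545 CPM (0.33, 0.28 to 0.39) and H2a as a class 153 and 159.6 CPM (0.06, -0.04 to 0.16). Of 36 measured genes, 9 were 1.5-fold or more higher and 1 lower (background 10.1% and 6.80% of 12556 genes; median 0.20 against 0.01). The DKO neurons held more cells of the second ganglion-like cluster, 875 of 1592 against 331 of 904 ganglion-like cells, and the sum was 805 and 1132 CPM in the first and 1031 and 1111 CPM in the second cluster.

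Other cells differed in direction. Pigment-like cells had 671 CPM in the control and 595 CPM in the DKO (-0.17, -0.24 to -0.11). The sums of H2a (-0.55) and H3 (-0.57) were lower and that of H2b (0.18) was higher. Of 11 measured H2b genes, however, 8 had a ratio below 1 and 3 above, with a median log2 ratio of -0.39. Hist3h2ba had 113 and 144 CPM and Hist1h2bc 25.8 and 34.3 CPM. The share over all genes was not counted for this cluster. The leading genes of this cluster (436 control and 811 DKO cells) included Dct, Trpm1 and Gja1, which the study uses as ciliary margin markers. The cluster may thus hold ciliary margin cells, and its make-up in each library was not examined. Lens-like cells had 1283 and 1485 CPM (0.21, 0.15 to 0.27), at 18235.5 and 10124 UMIs per cell, and per cell their ratio was -0.41. The cluster led by Tbr1, Lhx9 and Rspo3 had 870.5 CPM in its 36 control cells and 1388 CPM in the DKO (0.67, 0.48 to 0.88). The low-UMI cluster 3 had a log2 ratio of -0.02.

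The genes that make and handle histone mRNA and protein were described from lists fixed for this purpose. Among 18 measured genes of transcription and 3′ processing of histone mRNA, 7 were 1.5-fold or more higher and 0 lower in S than in G1 of naive-like control cells, against 9.14% and 4.89% of all genes (median log2 ratio 0.45). Slbp had 101 CPM in G1 and 227 CPM in S (1.16), and Ccne2, a cyclin of the G1 to S transition, had 9.98 and 46.8 CPM (2.23). Of 14 chaperone and deposition genes, 7 were higher and 0 lower (median 0.58), among them Asf1b, which hands H3 and H4 to the replication machinery, with 3.43 and 29.0 CPM (3.08), and Chaf1b of the CAF-1 complex with 23.2 and 76.0 CPM (1.71). Replication-independent histone genes, which are used outside S phase, had 2 of 11 higher (median 0.17), and the H3.3 gene H3f3b had 1879 and 2209.9 CPM (0.23).

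In control neurons the medians of these lists lay below their level in naive-like S cells by less than the median of the histone genes (-3.78). Of the processing genes 8 of 18 were lower (median -0.50), of the chaperones 9 of 14 (median -1.41) and of the replication-independent histones 5 of 11 (median -0.53), with 0 higher by 1.5-fold in each list, against 29.0% lower and 27.9% higher of all genes. The replication-independent histones went both ways, 5 with a ratio above 1 and 6 below. Slbp had 44.1 CPM in control neurons (-2.36) and H3f3b 3119 CPM (0.50).

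The same lists did not differ by 1.5-fold between the genotypes in naive-like S cells. None of 18 processing genes, 14 chaperones and 11 replication-independent histones passed that fold in either direction, against 7.84% higher and 5.24% lower of all genes. Their medians were 0.01, 0.10 and 0.18 against 0.48 for the 58 histone genes and 0.04 for all genes. Slbp had 227 CPM in the control and 242 CPM in the DKO (0.09, 0.02 to 0.16), Asf1b 29.0 and 32.3 CPM (0.16), and H2afz, an H2A variant of dividing and other cells, 2809.9 and 3218 CPM (0.20). In neurogenic-like S cells 3 of 18 processing genes were 1.5-fold or more lower in the DKO (median -0.15). In the same cells 0 of 14 chaperones and 0 of 11 replication-independent histones passed the fold. Of all genes, 9.36% were higher and 7.38% lower there.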

How the data were processed

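Single-cell libraries of 1 control and 1 DKO embryo (10x Genomics 3′ kit, version 3) were used. Per the labels and the methods of the study, the authors aligned reads to mm10 with Cell Ranger 3.1.0 and deposited UMI counts per gene and barcode, which were used as deposited. The gene models of their reference package were not used here. Of 10315 control and 12672 DKO barcodes, those with over 200 and under 6000 genes and under 20% mitochondrial UMIs were kept, after the study's methods, leaving 80511672 and 81056488 UMIs. Libraries were integrated and clustered with Seurat 5.3.0 in R 4.3.3 (2000 variable genes, 20 dimensions, resolution 0.5) without 858 genes: histone and histone pathway genes, Six3, Six6, Y-linked and hemoglobin genes. A cluster took a class name where 75% of fixed markers, and at least 3, were above their level in other cells. Clusters of low UMI count or with over 50% doublets stayed unnamed. Parts of this naming rule were set after the clusters were seen. Doublets were scored with Scrublet through scanpy 1.11.5 at a threshold of 0.225 for both libraries, since the automatic control threshold of 0.635 called 0 cells. They came to 3.05% in the control and 2.71% in the DKO and stayed in, with their removal as an alternative.

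Cycle scores used 38 of 43 S genes and 52 of 54 G2/M genes, on cells thinned to 2000 UMIs. The 111 rows of the histone genes and of the fixed lists of histone pathway genes were taken out first. Genes of those lists, such as Slbp, Ccne2 and Chaf1b, thus did not enter the scores. Shallower cells (1265 control and 1566 DKO) got no stage. Levels are UMIs summed over the cells of a group scaled to 1000000 UMIs of that group (CPM), with exact Poisson intervals. Ratios have intervals from the exact binomial split of both counts, and shares of cells have exact Clopper-Pearson intervals, all at 95% and for counting error only. Reads without replicates allow no test, so a gene was counted as higher or lower by a fold of 1.5 among those with at least 20 UMIs in both groups together. The ratio code was tested on simulated data. Named genes were the 3 with the most UMIs in each class and, among those with at least 100 UMIs, the 5 highest and 5 lowest of 3 comparisons (DKO over control in naive-like S cells, S over G1 and neurons over S in the control), and fixed lists. Genes named outside this rule (Hist2h3c1, Hist2h3c2, and those below the UMI minimum) were chosen after their values were seen. The histone genes, the lists and the comparisons were chosen with earlier results of these data known. Stem-loops came from GENCODE M21 models and promoters from RefSeq GRCm38.p6, in which 55 of the 61 genes were matched. Alternatives are given below, 1 of them added after seeing the data.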

Additional observations from a re-analysis of the deposited data

Results flagged for a closer look

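The DKO over control log2 ratio of the summed histone genes differed in direction between cell classes. It was 0.49 in naive-like cells, -0.32 in neurogenic-like cells and -0.17 in pigment-like cells, each over all cycle stages, and with 1 library per genotype the difference between these ratios was not tested. The share of neurogenic-like cells in G1 was 49.7% in the control and 70.6% in the DKO. The ratios of that class within stages were 0.36 in G1, 0.11 in S and 0.19 in G2M. Counted as UMIs per cell they were 0.01, -0.19 and -0.10. With the libraries merged without integration the neurogenic-like ratio over all stages turned to 0.47, so its direction is not settled.

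Barcodes removed by the filter also held histone UMIs. They enter the library totals but no comparison between groups of cells above. The 493 removed control barcodes had 1804 CPM (1767 to 1841) and the 526 removed DKO barcodes had 1339.9 CPM (1305 to 1376), both above the limits of 0.591 and 0.729 CPM that a count of 0 allows.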

How the results depend on the processing

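No paired analysis was possible because there was 1 library per genotype, and for that reason no replicate could be left out. Ratios below are log2, first as reported and then under each alternative. The naive-like ratio over all stages (0.49) was 0.47 without doublets, 0.45 with libraries merged without integration, 0.53 at resolution 1, 0.58 with all genes used for clustering, 0.54 with another numerical library kernel (OpenBLAS Sandybridge), 0.43 with totals without mitochondrial, hemoglobin and ribosomal protein genes, 0.30 as UMIs per cell, 0.44 without Hist1h1b, 0.50 for DKO cells of subclusters low in Six3 and 0.47 with the low-UMI cluster 3 joined (chosen after seeing the data). The median class ratio in naive-like S cells (0.61) was 0.48 merged, 0.55 with the other totals, 0.37 per cell, 0.71 without the top gene of each class and 0.75 for cells low in Six3. The neurogenic-like ratio over all stages (-0.32) turned to 0.47 when merged, and was -0.34 without doublets and at resolution 1, -0.25 with all genes, -0.19 with the other kernel, -0.77 per cell and -0.29 without Hist1h1b. In S (0.11) it turned to -0.19 per cell, and was 0.23 merged, 0.16 at resolution 1, 0.19 with all genes and 0.17 with the other kernel. The cause of both turns was not tested.

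The median class ratio of S over G1 in the control (2.36) was 2.71 per cell, 1.86 without the top genes, 2.74 with stages from unthinned cells and 2.61 at 4000 UMIs. In the DKO (2.52) it was 2.83 merged, 2.64 at resolution 1, 2.25 with all genes, 2.71 with the other kernel, 2.79 per cell, 2.0 without the top genes, 2.93 unthinned and 2.94 at 4000 UMIs. For neurons over naive-like S cells in the control (-2.66) it was -2.74 with all genes, -2.58 with the other kernel, -2.85 with the other totals, -2.93 per cell and -2.42 without the top genes. In the DKO (-2.74) it was -2.54 merged, -2.86 with all genes, -2.92 with the other totals, -3.02 per cell and -2.94 without the top genes. H2b turned to -2.50 in the control and -3.06 in the DKO without Hist3h2ba.

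The count of genes higher in the DKO (20) was 31 for cells low in Six3 and 7 at 2-fold. The count lower (0) was 1 with all genes, with unthinned stages and at 4000 UMIs, and 2 for cells low in Six3. For S over G1 the count lower (0) was 2 merged and 1 with all genes, unthinned and at 4000 UMIs. The share over all measured genes was not counted under these alternatives, so these counts have no background beside them. The share of cells with any histone UMI (82.8% and 86.5% of naive-like cells, 77.9% and 84.7% of neurons, control and DKO) was 97.5%, 97.6%, 97.5% and 97.2% unthinned, and 93.1%, 95.5%, 94.6% and 97.2% at 4000 UMIs. Of the main values under all alternatives, 95 stayed within their counting interval or within 1.5 times the count, 65 moved beyond it and 2 turned. Levels of genes under about 100 UMIs are limited by depth, and shares by the 2000 UMIs to which cells were thinned.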
